A study of Mus musculus with 6 samples.

Results

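The genes described here encode the proteins of the cytosolic ribosome, in bulk RNA sequencing of mouse aortic roots. Members were all genes of the deposited count table whose symbol is Rpl or Rps with a number and an optional suffix (a, x, l, al or l1), together with Rplp0, Rplp1, Rplp2 and Rpsa, and whose counts summed to at least 60 over the 6 libraries. Of 23420 genes in the table, 83 matched the symbols and 78 were members, by symbol 31 of the small subunit and 47 of the large subunit. The muscle paralog Rpl3l was kept apart. The other 4 matches were under the minimum: Rpl26 and Rpl10l were listed at 0 in every library, Rpl30 had 6 to 11 counts and Rpl39l had 5 to 16. A 0 allows up to 3 counts in each library, but only where reads of the gene are assigned to it, which is not known here.

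The aortic root is the first stretch of the aorta, with the aortic valve and a rim of heart muscle. Mice of the C57BL6/J background carried either the wild-type Sost gene (Sost+/+) or a knockout of both copies (Sost-/-). All had standard chow until 4 months of age and then a high-cholesterol diet for 8 months, and were 12 months old at sampling. Each genotype has 3 libraries, written WT 1 to WT 3 and KO 1 to KO 3 after their labels, from snap-frozen roots. No animals are named in the labels, and the p-values therefore reflect only how far these samples differ among themselves.

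Total counts ran from 37023586 to 48172863 per library, and the members drew 865683 to 1380368 of them. Sost itself had 274 to 621 counts in the libraries labelled Sost+/+ and 513 to 2284 in those labelled Sost-/-, so the targeted gene was not lower in the libraries labelled as knockout, and every direction below is one between labels. Levels are given in CPM, the count per 1000000 counts of a library size scaled by the trimmed mean of M values (TMM). Marker levels of muscle cells differed by label: the 28 cardiomyocyte markers summed to 132225 to 144828 CPM in WT and 91731 to 112763 CPM in KO libraries, and the 20 smooth muscle markers to 5042 to 6403 CPM and 7885 to 9573 CPM. In bulk RNA, fewer cells of a type and less RNA per cell cannot be told apart.

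Ribosomes are built from ribosomal RNA and one copy each of most ribosomal proteins, and cells are known to make these proteins in matched amounts. Their mRNAs are short, abundant and stable, and most begin with a terminal oligopyrimidine (TOP) tract, a C followed by a run of pyrimidines at the transcription start, through which mTORC1 and LARP1 control their translation. In growing heart muscle, ribosome supply is known to rise with protein synthesis, and muscle fibres also make Rpl3l in place of part of their Rpl3.

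The promoter windows were searched for pyrimidine runs near the starts of the members. RefSeq promoters (GRCm38.p6) were matched for 59 of the 78 members, with 70 start sites. In the window from 25 bases before to 15 bases after the start, 30 of 70 held an unbroken run of at least 8 C or T on the sense strand (42.9%), against 16.6% of 32851 promoters of all genes. The following windows, 5′ to 3′ with the run in capitals, are from members described below. Counted within the window, Rpl7a has the longest run among the matched members, and Rps6 (the S6 kinase substrate), Rps10, Rpl38, Rpl39, Rpl22l1 and Rpl13a also hold one. Runs were cut at the window edge. A run can also lie wholly before the annotated start, as that of Rpl39 does, so a run is not by itself a TOP tract.
Rpl7a, chr2:26910782-26910821, plus strand: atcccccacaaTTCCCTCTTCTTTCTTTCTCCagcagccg
Rps6, chr4:86857353-86857392, minus strand: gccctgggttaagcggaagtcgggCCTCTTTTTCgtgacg
Rps10, chr17:27635230-27635269, minus strand: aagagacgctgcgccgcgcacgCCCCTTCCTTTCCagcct
Rpl38, chr11:114668555-114668594, plus strand: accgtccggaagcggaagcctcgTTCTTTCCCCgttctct
Rpl39, chrX:37085208-37085247, minus strand: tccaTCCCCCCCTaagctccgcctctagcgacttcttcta
Rpl22l1, chr3:28805483-28805522, plus strand: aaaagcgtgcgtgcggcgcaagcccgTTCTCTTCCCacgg
Rpl13a, chr7:45128731-45128770, minus strand: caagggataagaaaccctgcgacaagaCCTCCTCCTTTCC
The windows of Rps2, Rps12, Rps3, Rpl10, Rpl7l1 and Rps4x hold no run of 8 or more and are shown for comparison, since they lie at the ends and in the middle of the differences between the labels.
Rps2, chr17:24720038-24720077, plus strand: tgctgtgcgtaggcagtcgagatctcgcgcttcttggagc
Rps12, chr10:23787195-23787234, minus strand: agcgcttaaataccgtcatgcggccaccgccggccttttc
Rps3, chr7:99483695-99483734, minus strand: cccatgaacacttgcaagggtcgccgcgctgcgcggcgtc
Rpl10, chrX:74270791-74270830, plus strand: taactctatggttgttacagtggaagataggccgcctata
Rpl7l1, chr17:46782642-46782681, minus strand: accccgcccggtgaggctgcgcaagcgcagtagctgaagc
Rps4x, chrX:102189377-102189416, minus strand: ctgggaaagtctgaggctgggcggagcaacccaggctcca
A start annotated a few bases away would move the window, so the absence of a run speaks only of these letters. The median log2 fold change (KO over WT) was -0.03 for the 29 members with a run and 0.01 for the 30 without, and both sets held members at either end. Within the full 300 bases, CCGGAAG, a motif of ETS factors, was found on either strand in 34.3% of member promoters and in 8.86% of all promoters. AAGATGG, a core of YY1 sites, was found in 17.1% against 6.34%, and TATAAA in 7 of the 70 against 13.6%. The first and the second of these motifs share the letters AAG and can overlap, and a match is a description of the sequence, not a measured site.

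The question put by the design is whether these genes differ between the genotypes. None of the 78 members passed the test between the labels (edgeR's quasi-likelihood test with Benjamini-Hochberg adjustment over 15096 genes, adjusted p under 0.05), against 2.55% of all genes tested (385). Of all genes, 329 passed as higher (2.18%) and 56 as lower (0.371%) in KO libraries. The smallest adjusted p of a member by that edgeR test was 0.140, for Rpl7l1. At an unadjusted p under 0.05, 3 members (Rpl7l1, Rps2 and Rps20; 3.85%) stood against 20.2% of all genes. DESeq2, run on the same counts, called 0 members against 7.83% of the genes it tested. The middle of the group lay at 0: the median log2 fold change was -0.00 over the members and 0.01 over all genes, with 38 members above 0 and 40 below. Of the 78, 49 lay within 0.1 of 0 and 67 within 0.2, with a median standard error (SE) of 0.14. The median size of the difference was 0.08 for the members and 0.16 for all genes. The small-subunit genes had a median of -0.02, the 44 large-subunit genes outside the stalk -0.00, and the 3 stalk genes 0.03. Because 1 library can carry the sign of so small a median, it was -0.10 without WT 3, -0.09 without KO 2 and 0.08 without WT 1 or KO 1 in edgeR.

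**Figure D1:**
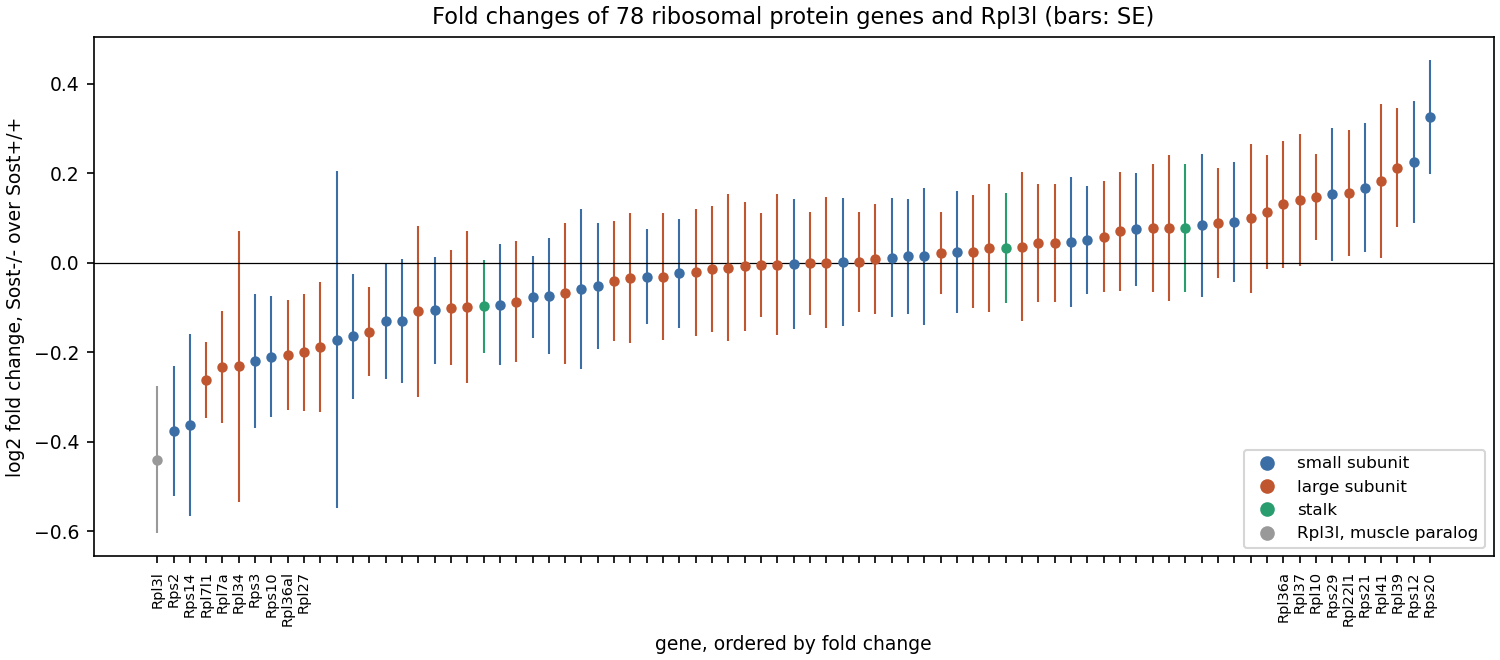
Log2 fold change of each member and of Rpl3l in the libraries labelled Sost-/- over those labelled Sost+/+, with the SE from edgeR as bars (3 libraries per label). Points are coloured by subunit and ordered by value, with names at both ends: 38 members lie above 0 and 40 below, and Rps2 and Rps20 are the lowest and the highest member.

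The members were high or low together from library to library, in a pattern that the labels do not follow. They took 2.87%, 2.67% and 2.34% of all counts in WT 1 to WT 3 and 2.39%, 3.15% and 2.89% in KO 1 to KO 3, which is 2.62% ± 0.27 (SD, n = 3) and 2.81% ± 0.39 (SD, n = 3). The share was lowest in WT 3 and KO 1 and highest in KO 2, so each label held low and high libraries and the groups overlapped. On the log2 CPM scale, the median member lay 0.20, -0.01 and -0.20 from its own mean in the WT libraries and -0.20, 0.17 and 0.03 in the KO libraries. All 78 members were higher in WT 1 than in WT 3, where 49.7% of all genes were, and 76 were higher in KO 2 than in KO 1, where 52.2% of all genes were. The median member was 1.32 times as high in WT 1 as in WT 3 and 1.29 times as high in KO 2 as in KO 1. Either WT 3 or KO 1 was the lowest library for 75 members (96.2%), against 31.1% of all genes, and either WT 1 or KO 2 was the highest for 75, against 41.7%. These 4 libraries were picked out after their values were seen, and the counts describe them without a test. The ranks are of TMM-scaled CPM. By share of all counts, WT 1 (2.87%) lay below KO 2 (3.15%) and KO 3 (2.89%), so its rank depends on the scale.

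Other short mRNAs moved in part the same way. The 139 other protein-coding genes with a principal transcript under 600 bases had median shifts of 0.22, 0.08 and -0.12 in WT 1 to WT 3 and -0.20, 0.05 and -0.06 in KO 1 to KO 3. Those of 2500 bases or more (8016 genes) had -0.05, -0.03, 0.03, 0.04, -0.01 and 0.03 in the same order. The short genes thus shared the high WT 1 and the low WT 3 and KO 1 with the members, but in KO 2 the members lay at 0.17 and the short genes at 0.05. The part of transcript length in the shared pattern was not tested. The mitochondrial ribosomal protein genes shared the high WT 1 only: their shifts were 0.25, 0.08 and -0.04 and then -0.06, -0.10 and -0.15. The snoRNA host genes, whose spliced transcripts also carry TOP tracts in several cases, lay at 0.16, 0.04 and -0.18 and then -0.26, 0.09 and 0.12 over 9 genes, close to the order of the members. The 21 translation genes with TOP mRNAs lay at 0.20, -0.00 and -0.06 and then -0.11, 0.04 and -0.06, with KO 2 below the 0.17 of the members. The 4 ribosomal protein genes with other symbols lay at 0.16, 0.00 and -0.11 and then -0.18, 0.14 and -0.03, near the members. Among the cell type markers, the 10 adipocyte genes had shifts of -0.14, -0.21 and -1.46 in WT and -0.25, 1.33 and 0.64 in KO libraries. They shared the low WT 3 and the high KO 2 with the members, but not the high WT 1. They summed to 514 to 906 CPM in WT and 668 to 1489 CPM in KO libraries, and none was at 0 in every library. The 14 endothelial genes had 0.04, 0.18 and 0.04 and then 0.20, -0.21 and -0.15, opposite to the members in KO 1 and KO 2. They summed to 1531 to 1785 CPM in WT and 1337 to 1841 CPM in KO libraries, and none was at 0 in every library. The low WT 3 and high KO 2 were not particular to the adipocyte genes. The 14 fibroblast and valve interstitial genes had -0.12, -0.01 and -0.16 and then -0.02, 0.17 and 0.12. The 8 Schwann cell genes had -0.22, -0.06 and -0.34 and then -0.02, 0.23 and 0.43. The 13 macrophage genes had -0.04, -0.17 and 0.13 and then -0.22, 0.23 and 0.13, with the low KO 1 and high KO 2 but no low WT 3. The other marker lists are not set beside the pattern here. The part of any cell type in it was not tested.

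**Figure D2:**
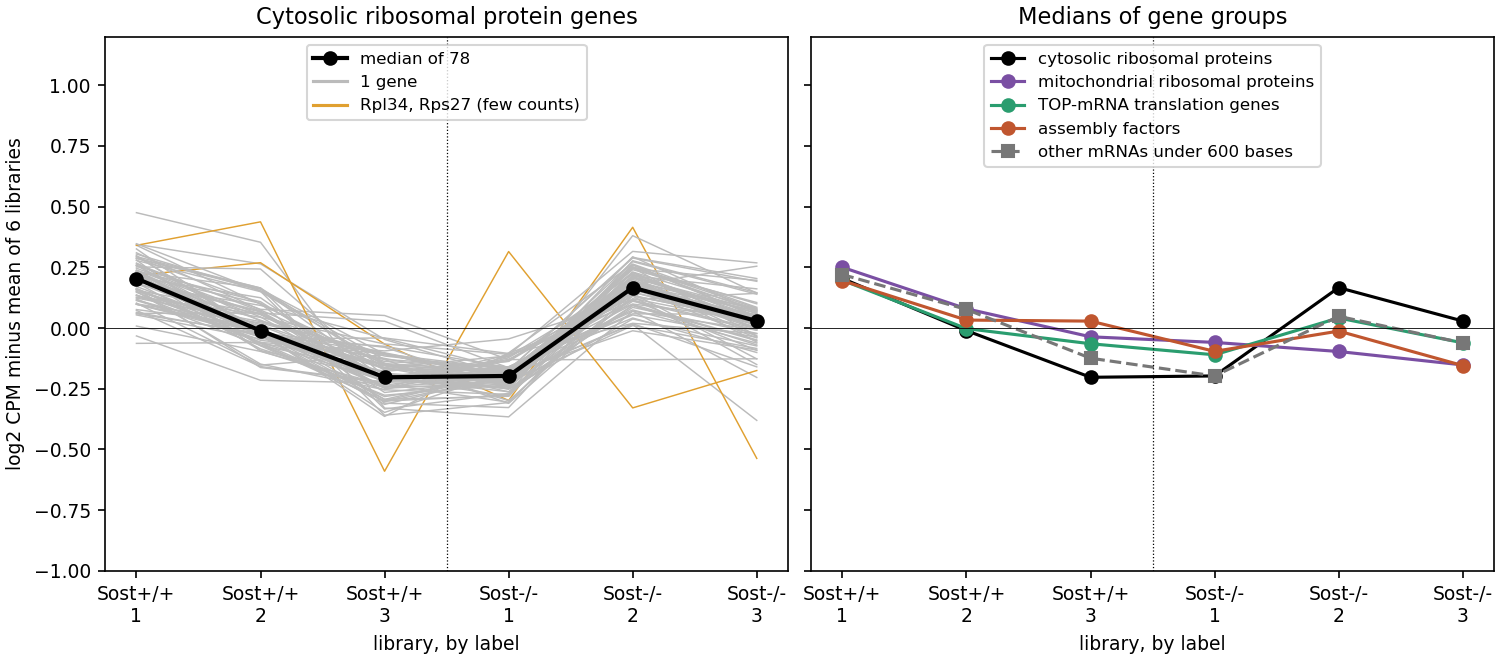
Left, log2 CPM of each of the 78 members minus its mean over the 6 libraries (thin lines), with their median (black); right, the medians of other gene groups on the same scale. The member median is at 0.20 in WT 1 and 0.17 in KO 2 and at -0.20 in WT 3 and KO 1, while the mitochondrial ribosomal protein genes end at -0.15 in KO 3; Rpl34 and Rps27 rest on few counts.

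Removing each library's member median left little spread. The median SD of a member over the 6 libraries was 0.19 before and 0.08 after, on the log2 scale, and 51 of 78 members were then under 0.1. The members themselves set this median, so their spread is narrowed by construction. The steadiest was Rps4x, an X-linked small-subunit gene, at 0.02 (SD) around the median. Its relative levels were -0.02, 0.00 and -0.01 in WT and 0.01, 0.00 and 0.02 in KO libraries. Its CPM values, 623, 543 and 471 against 482, 614 and 568, therefore trace the shared pattern almost exactly. Rpl5 was also among the steadiest, at 0.03. The 7 genes over 0.15 were Rps27, Rpl34, Rps14, Rps2, Rpl7l1, Rps20 and Rpl10. Of these, Rps27 and Rpl34 rest on few counts.

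Among the small-subunit genes, Rps2 and Rps20 lay at opposite ends of the fold changes. Rps2 (chr17:24718116-24721929, plus strand, GRCm38, 6 exons) encodes a protein near the path by which mRNA enters the ribosome. It was at 1180, 1116 and 899 CPM in WT and 810, 938 and 714 CPM in KO libraries. Only KO 2 reached above the lowest WT library, and the log2 fold change was -0.38 (SE 0.14, adjusted p = 0.194 by edgeR). Rps20 (chr4:3831334-3835665, minus strand, 4 exons), another small-subunit protein, was at 219, 193 and 192 CPM in WT and 208, 279 and 270 CPM in KO libraries. KO 2 and KO 3 were above every WT library and KO 1 was among them, with a log2 fold change of 0.33 (SE 0.13, adjusted p = 0.199 by edgeR). Since both genes are scaled by the same library size, their ratio does not depend on it: Rps2 had 538%, 578% and 469% of the Rps20 counts in WT and 390%, 336% and 264% in KO libraries. The ratio was lower in every KO library than in every WT library, for a pair chosen after its values were seen and with no test. Of the 50-base stretches of their transcripts, 79.0% for Rps2 and 7.44% for Rps20 also occur in transcripts of other genes. That share was 90.1% for Rps12 and 81.2% for Rpl7a, both described below. How such reads were counted is not known here. With DESeq2, Rps2 passed when WT 3 was left out (log2 fold change -0.50, adjusted p = 0.00572) or KO 2 (-0.49, adjusted p = 0.0223), and Rps20 when KO 1 was left out (0.43, adjusted p = 0.00442). In those DESeq2 runs 9.16%, 5.93% and 8.52% of all genes passed. Snhg9 and Snora78 overlap Rps2 on the other strand, and no source used here gives the strand setting of the counting.

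Other small-subunit genes filled the range between. Rps14, a protein of the platform of the small subunit, stood at 893, 821 and 511 CPM in WT and 499, 674 and 558 CPM in KO libraries (log2 fold change -0.36, SE 0.20, adjusted p = 0.350 by edgeR). WT 3 lay with the KO libraries, and the groups overlapped. Rps3, at the mRNA entry site and also known in DNA repair, had 739, 665 and 547 CPM against 482, 655 and 539 CPM, with a log2 fold change of -0.22 (SE 0.15). It was high in WT 1 and low in KO 1, as the member median was. Rps12 had 411, 382 and 347 CPM in WT and 363, 500 and 471 CPM in KO libraries, a log2 fold change of 0.23 (SE 0.14, adjusted p = 0.384 by edgeR). Rps21 and Rps29, both very small proteins, had log2 fold changes of 0.17 and 0.15. Rps6, whose phosphorylation by S6 kinase is a common readout of mTORC1, was at 395, 334 and 305 CPM against 279, 350 and 316 CPM, a log2 fold change of -0.13 (SE 0.13). Rps19, mutated in Diamond-Blackfan anaemia, was at 0.05, and Rps27a, made as a fusion with ubiquitin, at 0.01. Rpsa, known also as a laminin receptor precursor, had 805, 742 and 712 CPM against 637, 882 and 759 CPM and a log2 fold change of 0.01 (SE 0.13). For each of these genes the range of the libraries within at least 1 label was wider than the distance between the label means.

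**Figure D3:**
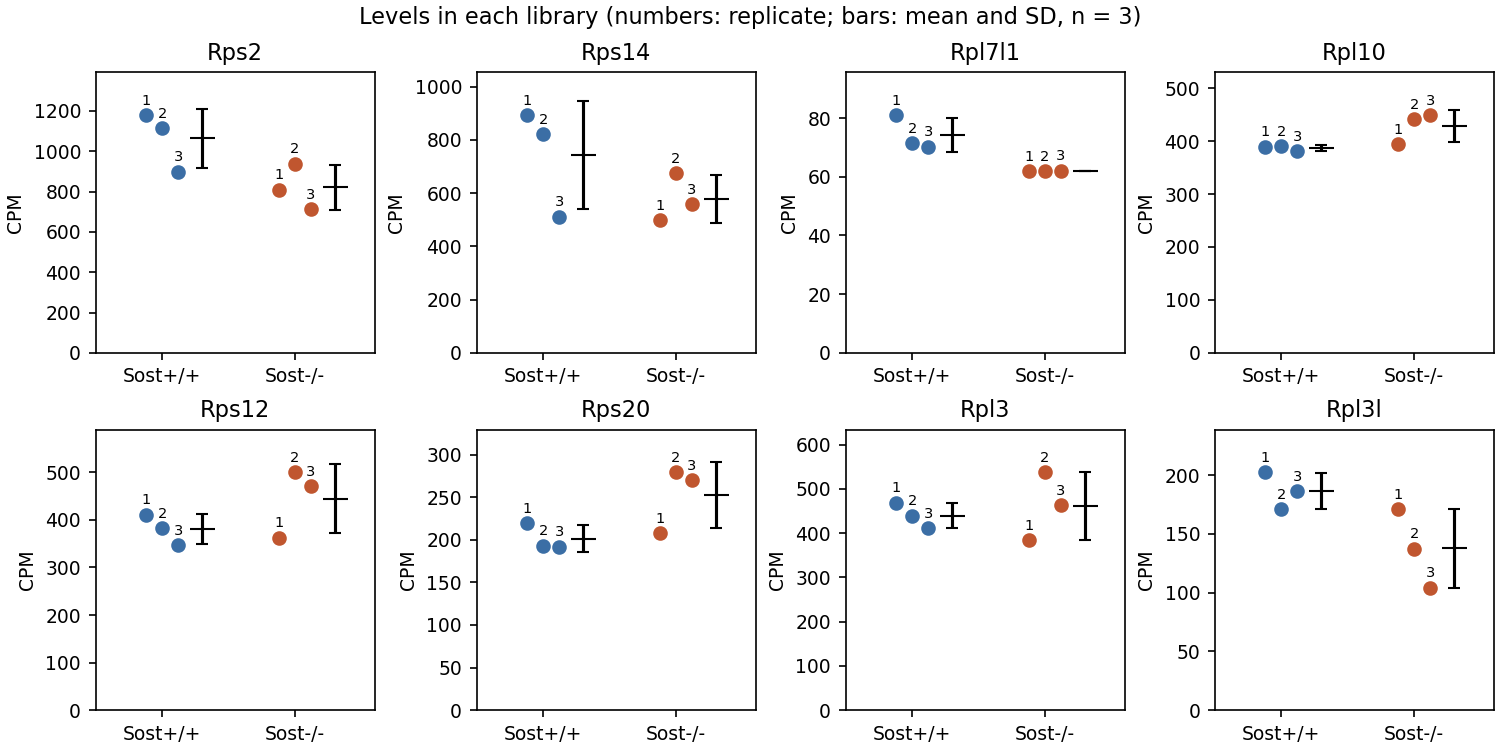
CPM of 7 members and of Rpl3l in each library, with the replicate number above each point and the mean and SD (n = 3) beside each group. Rps2, Rps14 and Rpl7l1 lie lower and Rps12, Rps20 and Rpl10 higher in most libraries labelled Sost-/-, and only Rpl7l1 and Rpl10 have groups that do not overlap.

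Rpl7l1 and Rpl10 were the 2 members whose CPM values did not overlap between the labels, 1 lower and 1 higher. Rpl7l1 is counted to the large subunit by its symbol alone, which does not show that its protein is part of the mature ribosome. Of all genes 25.4% did not overlap, 11.1% lower and 14.3% higher, so the share of members was below the background. Rpl7l1 (chr17:46773907-46782672, minus strand, 7 exons) is a paralog of Rpl7. It was at 81.0, 71.5 and 70.2 CPM in WT and at 61.9, 61.9 and 62.1 CPM in KO libraries (log2 fold change -0.26, SE 0.08, adjusted p = 0.140 by edgeR). The KO libraries lay within 0.2 CPM of one another and did not follow the shared pattern of the members. Rpl10 (chrX:74270812-74273135, plus strand, 7 exons) is among the last proteins to join the large subunit. It was at 389, 390 and 381 CPM in WT and at 394, 441 and 449 CPM in KO libraries (log2 fold change 0.15, SE 0.10, adjusted p = 0.423 by edgeR). Its 3 WT libraries were the closest together of all members relative to their mean, with those of Rplp0 next, and WT 1 did not stand above WT 3 by the usual margin. Other genes with identical stretches could exchange reads with it: 92.1% of the 50-base stretches of its transcript also occur in transcripts of other genes.

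Rpl7a, with the long pyrimidine run shown above, had 552, 505 and 420 CPM in WT and 394, 458 and 405 CPM in KO libraries (log2 fold change -0.23, SE 0.12, adjusted p = 0.331 by edgeR). KO 2 lay among the WT values. Rpl39, a small protein of the exit tunnel, had 124, 105 and 101 CPM against 104, 143 and 134 CPM, a log2 fold change of 0.21 (SE 0.13). Rpl41, the smallest ribosomal protein, had 431, 350 and 326 CPM against 321, 506 and 429 CPM and a log2 fold change of 0.18 (SE 0.17). Both were high in KO 2 and KO 3, and both overlapped between the labels. Rpl5 and Rpl11, which with a small ribosomal RNA bind the p53 ligase Mdm2, had log2 fold changes of -0.02 and 0.00. Rpl13a, known from translational silencing in inflammation, was at -0.11 (SE 0.19) and spanned 586 to 956 CPM within the WT libraries alone. Rpl38, known for translation of Hox mRNAs in the embryo, was at 0.10 (SE 0.17). The stalk genes, whose proteins bind the elongation factors, lay close to 0: Rplp0 at -0.10, Rplp1 at 0.08 and Rplp2 at 0.03. Rplp0, often used as a reference gene, had 831, 832 and 813 CPM in WT and 712, 840 and 764 CPM in KO libraries.

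Relative to the member median of each library, more genes separated. By this measure, chosen after the values were seen, the groups of 22 members did not overlap, 11 higher and 11 lower in KO libraries, against 13.5% of all genes (2031 of 15096). The narrowed spread named above bears on this count, and edgeR with the summed counts of the members as library size called 0 of them, against 1.25% of all genes. The lower members included Rps2, Rpl7a, Rps3, Rps10, Rpl36al, Rpl27, Rpl18, Rps7, Rps6 and Rps26. The higher members were Rps20, Rps12, Rpl39, Rps21, Rpl22l1, Rps29, Rpl37, Rpl36a, Rps24, Rpl31 and Rps25. Rps2 stood at 0.14, 0.27 and 0.16 in WT and 0.00, -0.15 and -0.41 in KO libraries on this log2 scale. Rps20 stood at -0.24, -0.20 and -0.02 and then 0.09, 0.15 and 0.24. Both were farthest from the other label in KO 3. Rpl7l1 and Rpl10 overlapped on this scale, so which members separate depends on the scale used. Across the 76 members with over 1000 counts in every library, the relative difference had a Spearman rho of -0.19 with GC content and of -0.26 with transcript length. These are descriptions over members that share the same 6 libraries. The lengths are those of annotated transcripts, 5130 and 3706 bases for Rps15a and Rps20, and may differ from those expressed.

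Per length of the principal GENCODE M21 transcript, the mean level over the 6 libraries was highest for Rplp1 at 1247 CPM per kb, Rps14 at 1104, Rps15 at 1056, Rps2 at 945, Rps12 at 835 and Rpl13a at 730. The median member had 419 CPM per kb, and 64 of 78 lay between 200 and 800. Low values came in part from the annotation: Rps15a at 38.2 and Rps20 at 61.2 CPM per kb have long annotated transcripts of 5130 and 3706 bases. Rpl7l1, with an annotated transcript of 2606 bases, was lower than both at 26.1 CPM per kb. Rps27 at 1.86 and Rpl34 at 2.89 CPM per kb were far below all others, with 15 to 35 and 39 to 73 counts per library. Rps27l, the paralog of Rps27, had 54.4 to 73.1 CPM in WT and 53.3 to 61.8 CPM in KO libraries. Rpl26 and Rpl30, also core proteins, were under the count minimum. Of the 50-base stretches of their transcripts, 98.6% for Rps27, 71.3% for Rpl26, 50.6% for Rpl34 and 47.8% for Rpl30 also occur in transcripts of other genes. The median over members was 52.6%. How reads with several matches were counted is not known here, and whether the counts of these 4 genes follow their expression was not tested.

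Rpl3l is the paralog of Rpl3 that heart and skeletal muscle put into their ribosomes, at the peptidyl transferase centre. It lies on chromosome 17 (chr17:24727820-24736143, plus strand, 10 exons), 5.89 kb past the end of Rps2. It was at 202, 171 and 186 CPM in WT and at 171, 137 and 104 CPM in KO libraries (log2 fold change -0.44, SE 0.16, adjusted p = 0.182 by edgeR). KO 2 and KO 3 were below every WT library, and KO 1 matched WT 2. Rpl3, with 469, 439 and 411 CPM against 384, 537 and 463 CPM, had a log2 fold change of 0.07 (SE 0.13). Rpl3l counts were 43.2%, 38.9% and 45.3% of those of Rpl3 in WT and 44.5%, 25.6% and 22.5% in KO libraries. The mean log2 ratio was -1.24 ± 0.11 (SD, n = 3) and -1.76 ± 0.52 (SD, n = 3), a difference of -0.52 (exact two-sided permutation p = 0.3, where 3 against 3 cannot go below 0.1). Without KO 1 the difference was -0.82, and without KO 3 it was -0.33.

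Cardiomyocyte markers moved with Rpl3l only in part. Their sum was lower in every KO library than in every WT library. Rpl3l in KO 1 was level with WT 2, at 171 CPM in both. The mean log2 CPM of the markers was 10.83 in KO 1 and 11.15 in WT 2. Per 10000 counts of the 28 cardiomyocyte markers, Rpl3l had 14.0, 12.7 and 14.1 counts in WT and 15.2, 13.7 and 11.3 in KO libraries, or 13.6 ± 0.79 (SD, n = 3) and 13.4 ± 1.93 (SD, n = 3). On that scale the labels overlapped, and the means differed by less than either SD. The KO values spread more widely than the WT values and fell from KO 1 to KO 3, so the similar means do not show that Rpl3l followed the markers. Of the 28 markers, 3 passed as lower and 0 as higher (edgeR, adjusted p under 0.05), where 0.371% of all genes passed as lower, with a median log2 fold change of -0.41. DESeq2 called 17 as lower (60.7%, against 2.75% of all genes). Eef1a2, the muscle form of elongation factor 1A, was at 1693, 1675 and 1622 CPM in WT and 1325, 1252 and 1098 CPM in KO libraries. It did not overlap between the labels, with a log2 fold change of -0.44 (SE 0.11, adjusted p = 0.0822 by edgeR and 0.000827 by DESeq2). Eef1a1, the general form, had a log2 fold change of 0.25 (SE 0.13). As with Rpl3l and Rpl3, the muscle form was thus lower and the general form not, by values that did not pass the edgeR test.

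The other paralog pairs were read the same way, as counts of the paralog in percent of the parent gene. Rpl36al had 57.1%, 56.5% and 56.0% of the counts of Rpl36a in WT and 50.1%, 43.2% and 42.4% in KO libraries. The WT libraries lay close to each other, and all KO libraries were lower. The 2 genes encode near-identical proteins and may exchange reads. Rpl7l1 had 14.8%, 14.5% and 14.6% of the counts of Rpl7 in WT and 13.7%, 11.1% and 12.0% in KO libraries, again with no overlap. Rpl22l1, which is known to be held down by Rpl22, had 17.1%, 19.9% and 17.5% of its counts in WT and 19.2%, 20.3% and 19.7% in KO libraries, with WT 2 among the KO values. These ratios do not depend on library scaling, and were not tested. Rpl39l and Rpl10l were too low to give one.

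**Figure D4:**
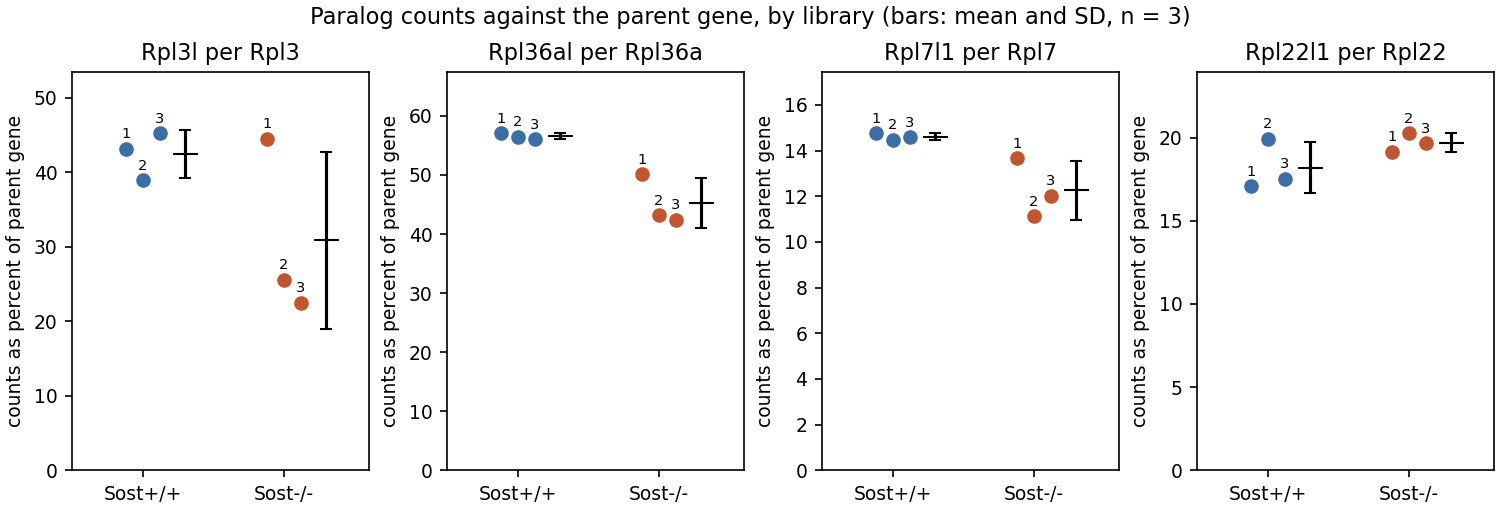
Counts of 4 paralogs as percent of the counts of the parent gene in each library, with the replicate number above each point and the mean and SD (n = 3) beside each group. Rpl36al per Rpl36a and Rpl7l1 per Rpl7 are lower in all libraries labelled Sost-/-, and Rpl3l per Rpl3 is lower in KO 2 and KO 3 but not in KO 1.

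Genes that build or feed the ribosome were taken from lists by function. Of 76 mitochondrial ribosomal protein genes, 0 passed the edgeR test in either direction, 72 had a log2 fold change below 0 and the median was -0.19. Their CPM values were lower in KO libraries without overlap for 27 of 76, where 11.1% of all genes were, and 25 had an unadjusted p under 0.05 (32.9%, against 20.2% of all genes). DESeq2 called 6 of them (7.89%), close to the 7.83% of all genes that it called. All 6 were lower (Mrpl15, Mrpl21, Mrpl38, Mrps18a, Mrps23 and Mrps34), where DESeq2 called 2.75% of all genes lower. Mrpl38, of the large mitochondrial subunit, had the smallest p: 70.9, 68.6 and 62.3 CPM in WT and 55.9, 52.5 and 51.9 CPM in KO libraries (log2 fold change -0.33, adjusted p = 0.0807 by edgeR). The cardiomyocyte markers, of a cell type rich in mitochondria, were lower in the same libraries, and their part in this was not tested. Of 70 ribosome assembly factors, 0 passed, 67 were below 0, and the median was -0.19. In that list 31 were lower without overlap and 1 was higher (11.1% and 14.3% of all genes), and 22 had an unadjusted p under 0.05 (31.4%, against 20.2%). DESeq2 called 5 (7.14%, against 7.83% of all genes), all of them lower, where 2.75% of all genes were called lower: Ddx21, Fbl, Nop2, Rrp12 and Rrp9. Fbl is the methylase of ribosomal RNA. Rrp9, a protein of the U3 snoRNP, was at 29.8, 28.8 and 31.2 CPM in WT and 24.0, 24.0 and 24.2 CPM in KO libraries (log2 fold change -0.32, adjusted p = 0.0797 by edgeR).

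The cytosolic ribosomal protein genes thus differed in their median from both lists, at -0.00 against -0.19 and -0.19, with no test of that difference. Other short mRNAs also had medians below 0. The median was -0.15 for the 139 other protein-coding genes under 600 bases and -0.12 for the 637 of 600 to 1000 bases. It was 0.03 for the 8016 of 2500 bases or more. The part of transcript length in the medians of the lists was not tested. Among 30 other initiation and termination factors, 0 passed, 29 were below 0 and the median was -0.17, with the smallest p for Eif2b4, a subunit of the exchange factor for initiation factor 2 (log2 fold change -0.36, adjusted p = 0.125 by edgeR). In that list 17 were lower without overlap and 0 higher (11.1% and 14.3% of all genes). An unadjusted p under 0.05 by edgeR was found for 8 (26.7%, against 20.2% of all genes). Among 21 translation genes with TOP mRNAs, 0 passed and the median was -0.08, and Hnrnpa1 had the smallest p. Hnrnpa1 was the lowest of that list, at 2.85, 2.42 and 1.73 CPM in WT and 1.24, 1.73 and 1.53 CPM in KO libraries. Whether its counts follow its expression was not tested. Ribosomal proteins with other symbols also gave 0 calls, among them Fau, Gnb2l1 and Rps3a1 with log2 fold changes of 0.11, -0.02 and -0.08. Of 15 RNA polymerase I genes, 0 passed and the median was -0.10 (Znrd1 had the smallest p). Of 35 genes of mTORC1 and MYC control, 0 passed and the median was -0.03. There, Rps6kb2, an S6 kinase, stood at 21.8, 21.3 and 23.2 CPM in WT and 25.9, 26.7 and 28.9 CPM in KO libraries (log2 fold change 0.30, adjusted p = 0.113 by edgeR). Its 3 KO values were above all WT values. Of 21 genes of ribosome stalling and quality control, 0 passed and the median was -0.13, with the smallest p for Habp4, a protein that binds idle ribosomes (log2 fold change -0.35, adjusted p = 0.0913 by edgeR). Habp4 and Ccdc124 of that list passed as lower in DESeq2 (9.52%, against 2.75% of all genes lower and 7.83% called in all), which called 0 of the initiation and termination factors, TOP translation genes, ribosomal proteins with other symbols, RNA polymerase I genes, mTORC1 and MYC genes and snoRNA host genes. The snoRNA host genes gave 0 calls among 9 and a median of 0.01.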

How the data were processed

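Bulk RNA of 6 aortic roots was analysed. The authors deposited read counts per gene, made with DRAGEN and HTSeq against mm10 per the submitters' processing notes, and a table of normalized signal, in which the deposited counts are divided by 1 factor per library. The sources used here do not give tool versions, annotation, strand setting or the handling of multiple matches. Genotype labels gave the groups.

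Of the counts, 15096 genes passed edgeR's filterByExpr (minimum count 10, minimum total 15) and were tested with edgeR 4.0.16 in R 4.3.3 (TMM, glmQLFit, glmQLFTest, Benjamini-Hochberg, threshold 0.05); the log2 fold change is KO over WT. The step was tested on simulated data. Alternatives were other scalings and filters, robust dispersion, DESeq2 1.42.0, limma 3.58.1 (voom, with and without library weights, and the normalized signal with pseudocounts 1 and 5), cell type covariates and each library left out. Transcripts came from GENCODE M21 and promoters from RefSeq (GRCm38.p6).

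The members, lists and rules were chosen with earlier results of these data known. Named were the 6 highest and 6 lowest fold changes, the 6 highest levels per length, paralog pairs, stalk genes, members with well known roles, and per list the gene of smallest p. Rps4x, Rps10, Rps21, Rps29, Rpl10 and Eef1a1, where named, members listed by relative level and genes listed as called by DESeq2 were chosen after their values were seen. Some genes are not reported here.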

Additional observations from a re-analysis of the deposited data

How the results depend on the processing

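No paired analysis was possible because the labels give no replicate numbers shared between the genotypes; replicates were numbered in accession order. The 385 genes passing over the whole table became 755 with total count scaling, 188 with scaling to ribosomal protein gene counts, 582 by limma-voom with library weights and 1161 by DESeq2, and 0 by edgeR with a covariate for cardiomyocyte or smooth muscle markers. Leaving out 1 library gave from 0 (edgeR, without WT 1) to 1313 (DESeq2, without WT 3). Of the ribosomal protein genes, 0 were higher and 0 lower under all settings with 6 libraries. With 1 left out, 0 to 1 were higher and 0 to 5 lower, the calls all by DESeq2: Rps20 without KO 1 (of 8.52% of all genes), Rps2 without KO 2 (5.93%), and Rps2, Rps10, Rpl7l1, Rps14 and Rpl7a without WT 3 (9.16%). The members' median log2 fold change was -0.54 with the cardiomyocyte covariate, with 1 of 78 above 0. That covariate, the mean log2 CPM of the markers, was 11.14, 11.15 and 11.10 in WT and 10.83, 10.71 and 10.69 in KO libraries. It separates the labels, so label and covariate cannot be told apart in that fit, and the -0.54 is no adjusted difference between the labels. Left-out libraries moved the members' median, without a covariate, from -0.11 to 0.08. Total count scaling moved the median of all genes to 0.13 and that of the members to 0.13, with 63 members above 0. The share of counts kept a higher KO mean, by 0.0148 to 0.396 percentage points, with each library left out. The log2 ratio of Rpl3l to Rpl3 then differed by -0.82 to -0.33. Of the 44 named genes, none reversed past the threshold, and 26 of their settings passed where the reported one did not. With 3 libraries per label and a median SE of 0.14 per member, the design is too small to show that members did not differ.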
